A study of Mus musculus with 3 samples.

Results

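The 10 genes described here control or mark the fat cell lineage, and they were taken by gene name from an expression table of 51826 rows. All 10 names were found, each on 1 row. Of these, 5 encode transcription factors of adipogenesis (Pparg, Cebpa, Cebpb, Cebpd and Klf5) and 5 encode adipocyte products (Fabp4, Adipoq, Plin1, Lpl and Acsl1). Their mRNA was read in ST2 cells, a stromal line from mouse bone marrow that can form osteoblasts or adipocytes. There were 3 libraries, 1 for each group. The control received empty vector with control siRNA. The NELL2 overexpression group received a NELL2 expression construct with control siRNA, and the Fn1 knockdown group received empty vector with siRNA against Fn1, all siRNAs at 30 nM. By the labels, every library thus came from cells given both a plasmid and an siRNA with a lipid reagent, and uptake was not measured here. The labels name DMEM with serum for these cells, whereas the study's methods name α-MEM. The methods describe adipogenic or osteogenic induction after such transfections, and whether the sequenced cells were induced is not stated. The study asked whether NELL2, a secreted protein, acts through fibronectin 1 to turn stromal cells from fat toward bone. The values examine the adipocyte side of that question. With 1 library per group there was no replicate, so each difference below is one between libraries and not between conditions, and no test was applied.

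Adipogenesis runs as a cascade. C/EBPβ and C/EBPδ appear first after hormonal induction, together with KLF5 they switch on PPARγ and C/EBPα, and these last factors then maintain each other and turn on the genes of the mature fat cell. PPARγ binds DNA as a pair with a retinoid X receptor such as RXRα. In bone marrow, stromal cells that lean toward fat share a progenitor with osteoblasts.

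The libraries were checked against their labels. The estimated depth was about 22967972, 23726900 and 24177758 fragments, values being given in the order control, NELL2 overexpression, Fn1 knockdown. Nell2 was at 0.640, 326 and 1.06 FPKM in that order, and Fn1 was at 2802, 2489 and 137 FPKM. FPKM scales the fragments of a gene to transcript length and to all mapped fragments. All 8 stromal markers were present, with a summed level of 2610 to 3034 FPKM. Of 7 markers of mature adipocytes, Fabp4 alone reached 1 FPKM, Retn was listed at 0 in all 3 libraries, and the sum was 1.48 to 1.81 FPKM. Of 6 osteoblast markers, 3 reached 1 FPKM (Runx2, Sp7 and Alpl) and the sum was 16.3 to 18.5 FPKM. The 5 macrophage markers summed to 7.34, 7.78 and 5.33 FPKM, and 3 of them reached 1 FPKM. Cd68 was at 4.08, 3.54 and 1.57, Cd14 at 1.74, 1.99 and 2.39, Csf1r at 1.06, 1.23 and 1.06, Adgre1 at 0.426, 0.9499 and 0.273 and Ptprc at most at 0.0633 FPKM, so the list did not move as one. The 4 endothelial markers summed to 1.75, 1.78 and 1.97 FPKM, with Kdr at 0.914, 0.812 and 1.33, Cdh5 at 0.738, 0.809 and 0.499, Pecam1 at most at 0.121 and Tek at most at 0.0835 FPKM. The part of other cell types in the results below was not tested. The adipocyte genes were therefore read in cells that expressed stromal markers and few markers of mature fat cells. In bulk RNA, fewer cells that express a gene and less of its RNA per cell cannot be told apart.

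Promoter windows are shown first for the highest gene, for the central factors Pparg and Cebpa and for the lowest genes. Of the 10 genes, 6 had a window in the RefSeq table used (GRCm38.p6), with 9 windows in all, each from 250 bases before to 50 bases after an annotated start. Searched on both strands were the TATA box (TATAAA), the CCAAT box (CCAAT), the GC box bound by Sp1 and KLF proteins (GGGCGG), a C/EBP element (TTGCNNAA), the core of the cAMP response element (TGACG) and the single nuclear receptor element (AGGTCA). Matches are in capitals, and a match in the reverse direction appears as its complement. GC boxes can overlap each other, and no other motifs overlapped in the windows shown. Cebpb was the highest of the 10 genes, Cebpa and Pparg were low, and Adipoq and Plin1 were barely detected. The Pparg windows shown belong to its most upstream and most downstream annotated start, which the gene-level table does not separate.
Cebpb (chr2:167688665-167688964, plus strand): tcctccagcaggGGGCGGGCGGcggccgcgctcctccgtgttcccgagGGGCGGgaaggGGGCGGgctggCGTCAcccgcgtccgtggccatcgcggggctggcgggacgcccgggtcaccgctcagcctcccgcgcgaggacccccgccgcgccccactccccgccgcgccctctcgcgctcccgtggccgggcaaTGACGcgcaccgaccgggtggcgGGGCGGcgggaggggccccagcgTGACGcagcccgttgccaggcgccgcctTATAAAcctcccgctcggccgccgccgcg
Cebpa (chr7:35119043-35119342, plus strand): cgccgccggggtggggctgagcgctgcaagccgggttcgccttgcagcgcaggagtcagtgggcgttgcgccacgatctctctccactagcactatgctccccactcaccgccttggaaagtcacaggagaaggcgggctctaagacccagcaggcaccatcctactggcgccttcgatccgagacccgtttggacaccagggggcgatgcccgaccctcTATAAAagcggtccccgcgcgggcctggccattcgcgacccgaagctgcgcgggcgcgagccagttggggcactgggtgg
Pparg, upstream start (chr6:115360894-115361193, plus strand): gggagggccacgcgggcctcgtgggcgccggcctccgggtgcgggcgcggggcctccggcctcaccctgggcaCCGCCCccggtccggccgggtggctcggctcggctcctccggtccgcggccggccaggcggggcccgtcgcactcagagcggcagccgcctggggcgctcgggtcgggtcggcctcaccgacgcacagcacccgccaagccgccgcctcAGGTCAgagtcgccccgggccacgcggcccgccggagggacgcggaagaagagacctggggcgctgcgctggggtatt
Pparg, downstream start (chr6:115421816-115422115, plus strand): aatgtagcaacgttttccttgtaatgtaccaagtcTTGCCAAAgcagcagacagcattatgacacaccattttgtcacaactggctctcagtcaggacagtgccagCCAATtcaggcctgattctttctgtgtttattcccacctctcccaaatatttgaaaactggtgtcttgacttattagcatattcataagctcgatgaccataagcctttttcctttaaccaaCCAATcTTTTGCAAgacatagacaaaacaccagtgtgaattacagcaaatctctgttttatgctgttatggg
Adipoq (chr16:23146286-23146585, plus strand): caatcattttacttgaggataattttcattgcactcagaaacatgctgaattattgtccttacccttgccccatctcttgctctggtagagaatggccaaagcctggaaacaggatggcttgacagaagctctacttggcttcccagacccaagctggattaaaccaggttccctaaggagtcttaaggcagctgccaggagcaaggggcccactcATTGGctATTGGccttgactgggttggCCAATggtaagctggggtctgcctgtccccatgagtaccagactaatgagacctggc
Plin1 (chr7:79732727-79733026, minus strand): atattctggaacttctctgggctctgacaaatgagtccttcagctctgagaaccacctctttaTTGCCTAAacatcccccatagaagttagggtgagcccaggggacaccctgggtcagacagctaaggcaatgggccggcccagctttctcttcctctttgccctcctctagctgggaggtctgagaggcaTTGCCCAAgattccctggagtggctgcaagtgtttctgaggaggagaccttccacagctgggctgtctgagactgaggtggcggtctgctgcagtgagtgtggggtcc

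The windows differed in base composition. The Cebpb window held 50 CpG dinucleotides, more than 99.1% of all 32851 windows in the table, and 80.7% G and C. The upstream Pparg window held 44 CpG and the Cebpa window 29, whereas the downstream Pparg window and the Plin1 window held 2 each and the Adipoq window none. Of the windows not shown, the Pparg window between these starts held 13 CpG, and those of Acsl1, the gene with the third level in the control, held 30 at the upstream start and 4 at the downstream one. The median window held 7. Across the table, 70.1% of 11720 genes with a window above that median were at 1 FPKM or more in the control library, against 9.38% of 7392 genes without one. The Cebpb window had 5 GC boxes (present in 35.7% of windows), 3 TGACG matches (20.8%) and a TATAAA match beginning 22 bases into the transcript (13.6%). The upstream Acsl1 window had 7 GC boxes. In the Cebpa window the TATAAA match began 30 bases before the start. The C/EBP element stood at 2 places in the downstream Pparg window and at 2 in the Plin1 window, and 10.8% of all windows hold it. Adipoq had 3 CCAAT matches within 34 bases before its start (37.4% of windows hold at least one). An exact direct repeat of the receptor element with 1 base between, the form bound by PPARγ with RXRα, was in none of the 9 windows and in 0.0396% of all. Imperfect repeats were not searched, and Cebpd, Klf5, Fabp4 and Lpl had no window. These matches describe letters in short windows and were not tied to any binding data.

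The control library held the early factors at the highest levels. Cebpb was highest at 28.5 FPKM, followed by Cebpd at 6.89, Acsl1 at 4.76 and Klf5 at 4.50 FPKM. Pparg, Lpl, Cebpa and Fabp4 lay close together at 2.01, 1.95, 1.63 and 1.30 FPKM. Adipoq and Plin1 were at 0.0983 and 0.0826 FPKM. Each level carries a 95% counting interval (exact Poisson, from fragments estimated with the annotated transcript length), which covers counting error only. By these intervals Acsl1 and Klf5 were not separable from each other in the control, nor were the neighbours from Pparg down to Fabp4, nor Adipoq and Plin1. Cebpb stood above 88.7% of all genes listed above 0, Pparg above or level with 51.0% and Plin1 with 20.0%. The same 8 genes reached 1 FPKM in every library. Cebpb, Cebpd and Klf5 were thus above Pparg and Cebpa in each library, the product gene Acsl1 was above Klf5 under NELL2 overexpression and not separable from it in the other libraries, and the droplet coat and adipokine genes were near the limit of detection.

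**Figure D1:**
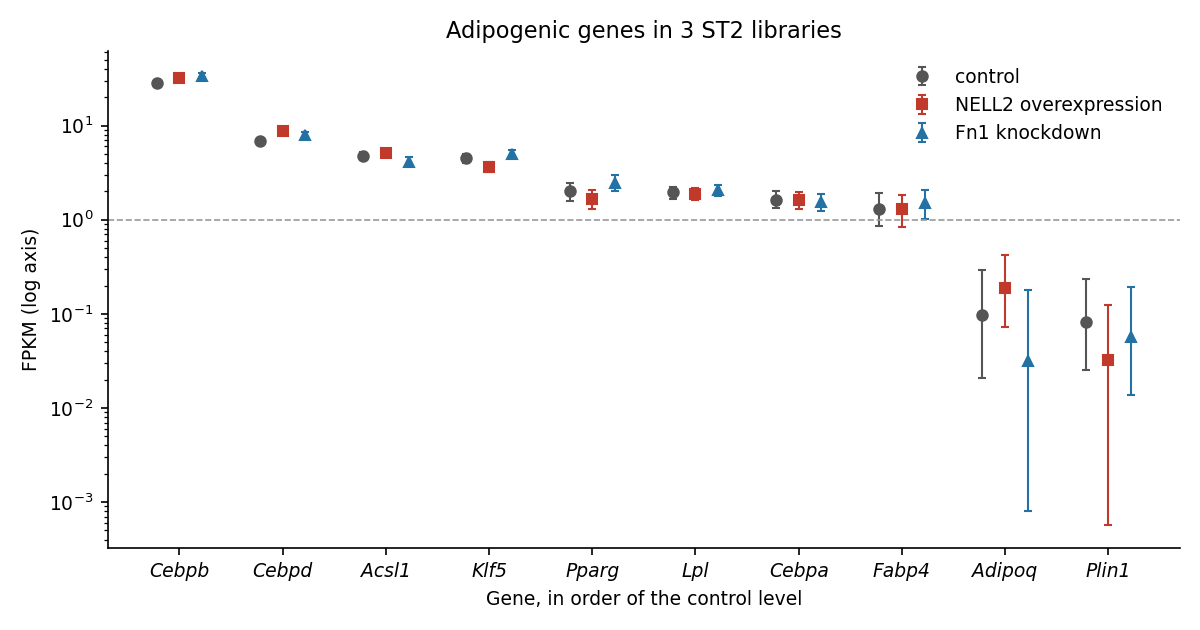
FPKM of the 10 genes (log axis) in the control (grey circles), NELL2 overexpression (red squares) and Fn1 knockdown (blue triangles) libraries, 1 library each, with 95% exact Poisson intervals from estimated fragments and a dashed line at 1 FPKM. Cebpb lay near 30 FPKM and 8 genes above 1 FPKM in all 3 libraries, whereas Adipoq and Plin1 lay below 0.2 FPKM with wide intervals.

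The early C/EBP factors were described first. Cebpb (chromosome 2, 167688915 to 167690418, plus strand, positions here and below from GENCODE M21 on GRCm38) encodes C/EBPβ, which is induced early and prepares chromatin for PPARγ. It was at 28.5 FPKM in the control library, 31.9 under NELL2 overexpression and 33.9 under Fn1 knockdown, or about 984, 1139 and 1234 fragments. Both treated libraries were above the control, at 112% (counting interval 103 to 122%) and 119% (109 to 130%) of its level. On the scale of log2(FPKM + 1) these were differences of 0.16 and 0.24. An exon of Cebpb overlaps Tmem189 on the opposite strand, which was at 24.1, 22.1 and 31.3 FPKM in the same order, and whether strand was used in counting is not stated. Its part in the Cebpb values was not tested.

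Cebpd (chromosome 16, 15887286 to 15891031, plus strand) encodes C/EBPδ, the partner of C/EBPβ in the early phase. It was at 6.89 FPKM in the control library, 8.82 under NELL2 overexpression and 8.01 under Fn1 knockdown. The 2 treated libraries were again the higher ones, at 128% (115 to 143%) and 116% (104 to 130%) of the control. On the scale of log2(FPKM + 1), its difference of 0.31 with NELL2 overexpression was the largest of the 10 genes in that library. On that scale 90.1% of all genes at 1 FPKM or more had a smaller one in size. With 0.1 added in place of 1, the barely detected Adipoq (0.54) and Plin1 (-0.46) differed more than Cebpd (0.35). Spidr, which overlaps Cebpd on the opposite strand, was at 5.72, 5.52 and 4.85 FPKM.

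Klf5 (chromosome 14, 99298691 to 99315036, plus strand) encodes a zinc finger factor that C/EBPβ and C/EBPδ switch on and that acts on the Pparg promoter. It was at 4.50 FPKM in the control library, 3.66 under NELL2 overexpression and 4.99 under Fn1 knockdown. The NELL2 overexpression library was lowest, at 81.2% of the control (68.7 to 95.7%), and the Fn1 knockdown library was at 111% with an interval that held 100% (95.1 to 129%). No annotated exon of another gene overlaps Klf5.

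Pparg (chromosome 6, 115360951 to 115490399, plus strand) encodes PPARγ, the nuclear receptor without which fat cells do not form. It was at 2.01 FPKM in the control library, 1.66 under NELL2 overexpression and 2.44 under Fn1 knockdown, from about 84, 72 and 108 fragments. The NELL2 overexpression library was below the control and the Fn1 knockdown library above it, at 82.6% (59.7 to 115%) and 121% (91.0 to 164%). At this depth neither was separable from the control by counting error alone. Cebpa (chromosome 7, 35119293 to 35121928, plus strand) encodes C/EBPα, which sustains Pparg in mature fat cells. It was at 1.63, 1.62 and 1.54 FPKM, so the 3 libraries were nearly level. The intervals, 73.2 to 134% of the control with NELL2 overexpression and 69.3 to 127% after Fn1 knockdown, still leave room for differences of that size. Within a library, Cebpb was 17.5, 19.7 and 22.0 times as high as Cebpa per length in the same order, and Pparg was 1.24, 1.03 and 1.58 times as high as Cebpa. Gm45091, which overlaps Cebpa on the opposite strand, was at 0, 0.155 and 0.173 FPKM.

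The adipocyte products were then examined. Fabp4 (chromosome 3, 10204088 to 10208576, minus strand) encodes the fatty acid binding protein also called aP2, a direct target of PPARγ. It was at 1.30, 1.29 and 1.49 FPKM, again in the order control, NELL2 overexpression, Fn1 knockdown. These rested on about 27, 27 and 32 fragments, and the intervals of the ratio to the control ran from 54.6 to 171% and from 65.3 to 195%. No difference was detectable at this depth. Lpl (chromosome 8, 68880491 to 68907448, plus strand) encodes lipoprotein lipase, which releases fatty acids from circulating triglyceride and is made early in adipogenesis. It was at 1.95, 1.86 and 2.05 FPKM, at 95.4% (77.6 to 118%) and 105% (85.9 to 129%) of the control. Both intervals held 100%.

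Acsl1 (chromosome 8, 46471037 to 46536051, plus strand) encodes the long-chain acyl-CoA synthetase that activates fatty acids for triglyceride synthesis or oxidation, and it is not restricted to fat cells. Gm45244, which overlaps Acsl1 on the opposite strand, was listed at 0 in every library. Acsl1 was at 4.76 FPKM in the control library, 5.12 under NELL2 overexpression and 4.13 under Fn1 knockdown. The Fn1 knockdown library was lowest at 86.8% of the control (74.8 to 101%) and the NELL2 overexpression library was at 107% (93.2 to 124%). Both intervals held 100%.

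Adipoq and Plin1 mark the mature fat cell. Adipoq (chromosome 16, 23146536 to 23158028, plus strand) encodes the adipokine adiponectin and was at 0.0983, 0.188 and 0.0316 FPKM, which corresponded to about 3, 6 and 1 fragments. Plin1 (chromosome 7, 79720218 to 79732903, minus strand) encodes perilipin 1, the coat of the lipid droplet, and was at 0.0826, 0.0326 and 0.0565 FPKM from about 4, 1 and 3 fragments. With so few fragments the ratios are nearly unbounded. For Adipoq they were 191% of the control (41.3 to 1196%) with NELL2 overexpression and 32.1% (0.603 to 394%) after Fn1 knockdown, and for Plin1 39.4% (0.491 to 245%) and 68.4% (10.4 to 421%). No direction was read from either gene.

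**Figure D2:**
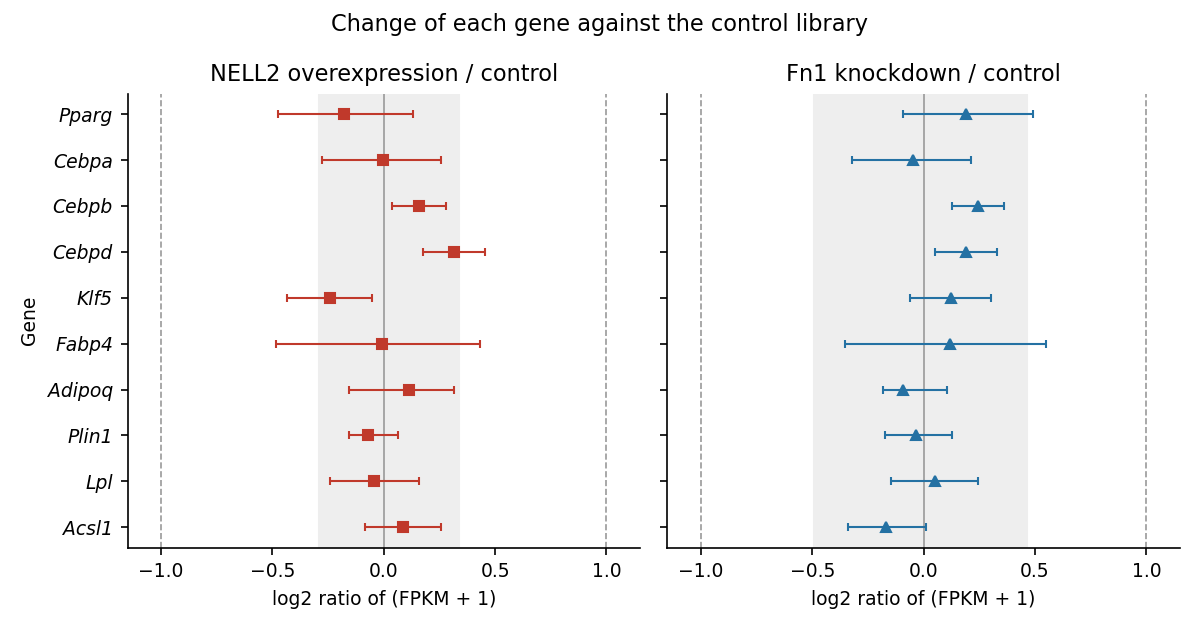
Log2 ratio of (FPKM + 1) to the control for the 10 genes with NELL2 overexpression (left, red squares) and Fn1 knockdown (right, blue triangles). Bars are 95% exact binomial counting intervals, the grey band spans the 5th to 95th percentile of the 12733 genes that reached 1 FPKM in any library, and dashed lines mark 2-fold in FPKM + 1. Cebpb and Cebpd lay above 0 in both panels, Klf5 lay below 0 on the left only, and every gene lay inside the grey band.

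NELL2 overexpression was compared with the control over all members. A gene was called when log2(FPKM + 1) differed by 1 or more, which is 2-fold in FPKM + 1, and it reached 1 FPKM in either library. All cutoffs below are on this scale, which understates the change of low genes, so a gene can exceed 2-fold in FPKM itself and not be called. None of the 8 genes that could be called was called, and 0.652% of all 12572 genes tested were (0.374% higher and 0.278% lower), so a count of 0 is near what the background gives. At a 1.5-fold cutoff no member was called either, against 2.59% of all genes. The 8 genes had log2 ratios from -0.24 (Klf5) to 0.31 (Cebpd), with 3 above 0 and 5 below. Their median was -0.0069, beside 0.0071 over the 12733 genes that reached 1 FPKM in any library. Counting intervals left out 0 for 3 of the 8 genes, Cebpb and Cebpd on the higher side and Klf5 on the lower. Since the same held for 31.2% of 12256 genes with an annotated length, a gene outside its counting interval is common between these libraries.

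Fn1 knockdown was compared with the same control. Again no member was called at 2-fold, with 1.23% of 12574 genes called (0.684% higher and 0.549% lower), and none at 1.5-fold, with 6.24% called. The log2 ratios of the 8 genes ran from -0.17 (Acsl1) to 0.24 (Cebpb), with 6 above 0 and 2 below (Acsl1 and Cebpa). The median was 0.12, beside -0.0030 over all genes. Counting intervals left out 0 for Cebpb and Cebpd, both higher, which is 2 of 8 genes against 51.3% of 12257 genes.

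The comparisons share the control library, so the values are given side by side without a measure of their likeness. Cebpb and Cebpd were above the control in both treated libraries. Klf5 was below the control with NELL2 overexpression, and its interval after Fn1 knockdown held 100%. For Pparg, Cebpa, Fabp4, Lpl and Acsl1 the intervals held 100% in both comparisons, so no direction was read from them. The treated libraries were also set directly against each other. After Fn1 knockdown Pparg was at 147% of its level with NELL2 overexpression (counting interval 108 to 201%), Klf5 at 136% (116 to 160%) and Acsl1 at 80.8% (69.9 to 93.6%). Intervals of this comparison held 100% for the other 5 of the 8 genes, and they left out 100% for 50.7% of all 12279 genes with a length. These were single libraries, and the spread between cultures was not measured.

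**Figure D3:**
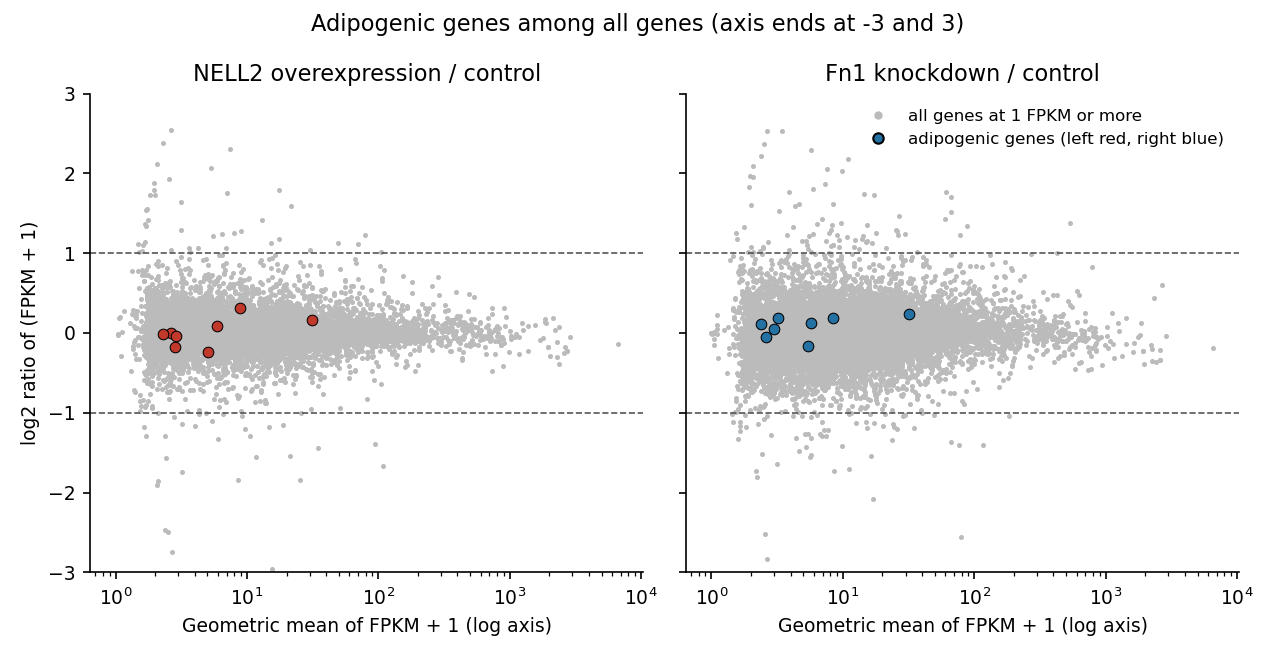
Log2 ratio of (FPKM + 1) against the geometric mean of FPKM + 1 (log axis) for all genes at 1 FPKM or more (grey) and for the 8 adipogenic genes at that level (red for NELL2 overexpression, blue for Fn1 knockdown). The 8 genes lay between -0.24 and 0.31, well within the dashed 2-fold lines, and 7 and 9 genes lay beyond the axis ends, 3 log2 units either way, in the left and right panels.

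Other genes of the adipogenic pathway were read from lists written with the 10 genes. No gene of any of the lists was called with NELL2 overexpression, where 0.652% of all genes were. After Fn1 knockdown 1 was called, Rxra, where 1.23% of all genes were. In lists of this size such counts are near the background, so they are no result about the lists, and Rxra is described because the naming rule takes every called gene. Rxra (chromosome 2, 27676440 to 27762957, plus strand) encodes RXRα, the partner with which PPARγ binds DNA. It was at 21.7 FPKM in the control library, 21.2 under NELL2 overexpression and 10.2 under Fn1 knockdown. The first libraries were nearly level and the Fn1 knockdown library was at 47.2% of the control, a log2 ratio of -1.01 (counting interval -1.14 to -0.89). It was no longer past 2-fold with a pseudocount of 5 (-0.81) or with median-of-ratios scaling (-0.9996). The related receptor gene Rxrb was at 13.4, 13.8 and 15.1 FPKM and was named after its values were seen. No exon of another gene overlaps Rxra.

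Positive regulators beside the 10 genes gave 16 of 18 genes at 1 FPKM or more, with medians of 0.0071 and -0.031 for NELL2 overexpression and Fn1 knockdown. Beside Rxra, the furthest from the control were Zfp467 (1.31, 2.19 and 1.27 FPKM), a zinc finger factor that favours fat over bone, and Ppargc1a (0.421, 0.201 and 0.0941 FPKM), a PPARγ coactivator of brown fat. Zfp423, which commits preadipocytes, was at 1.34, 1.60 and 0.909 FPKM, and Nr3c1, the glucocorticoid receptor, at 23.8, 29.1 and 24.0 FPKM. Zfp467 and Nr3c1 were thus highest with NELL2 overexpression, and Ppargc1a, at about 45, 22 and 10 fragments, was highest in the control. For Zfp423 the counting interval with NELL2 overexpression held 0 (-0.047 to 0.35), so no direction was read from that comparison.

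Negative regulators gave 15 of 15 genes at 1 FPKM or more, with medians of 0.000054 and 0.035 beside 0.0071 and -0.0030 over all genes. None was called, against 0.652% and 1.23% of all genes. Gata3 and Gata2, which hold preadipocytes back, were at 0.927, 0.927 and 1.81 FPKM and at 2.71, 2.77 and 3.55 FPKM, and 9230102O04Rik overlaps Gata3 on the same strand, so its value is uncertain. Klf2, which represses Pparg, was at 14.1, 12.0 and 18.3 FPKM. These 3 were highest after Fn1 knockdown. Wnt10b, the Wnt ligand that blocks adipogenesis, was at 2.24, 2.51 and 1.66 FPKM. Its counting intervals held 0 with NELL2 overexpression (-0.17 to 0.41) and after Fn1 knockdown (-0.59 to 0.011), so no direction was read from it.

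Genes of the mature adipocyte gave 7 of 18 genes at 1 FPKM or more, with medians of 0.040 and -0.16. None was called, against 0.652% and 1.23% of all genes. Lep was at or near 0, and Retn and Pck1 were listed at 0 throughout. The lipase genes Lipe and Pnpla2 were at 1.86, 2.17 and 1.25 FPKM and at 10.6, 13.3 and 11.6 FPKM. Plin4 and Dgat1, of lipid droplets and triglyceride synthesis, were at 1.52, 1.11 and 1.003 FPKM and at 11.1, 10.6 and 9.01 FPKM, and Lipe and Plin4 overlap genes on the opposite strand. PPAR target genes gave 10 of 12 genes at 1 FPKM or more, with medians of 0.053 and 0.017, and again none was called against those shares of all genes. The most abundant of them was Plin2, a lipid droplet coat that is not restricted to fat cells, at 82.1, 89.5 and 102 FPKM. Angptl4 was at 1.18, 1.60 and 1.68 FPKM and Acadm at 12.3, 12.3 and 9.95 FPKM. Ucp2, which Dnajb13 overlaps on the opposite strand, was at 0.586, 0.856 and 0.296 FPKM. Over all genes the medians were 0.0071 and -0.0030.

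**Figure D4:**
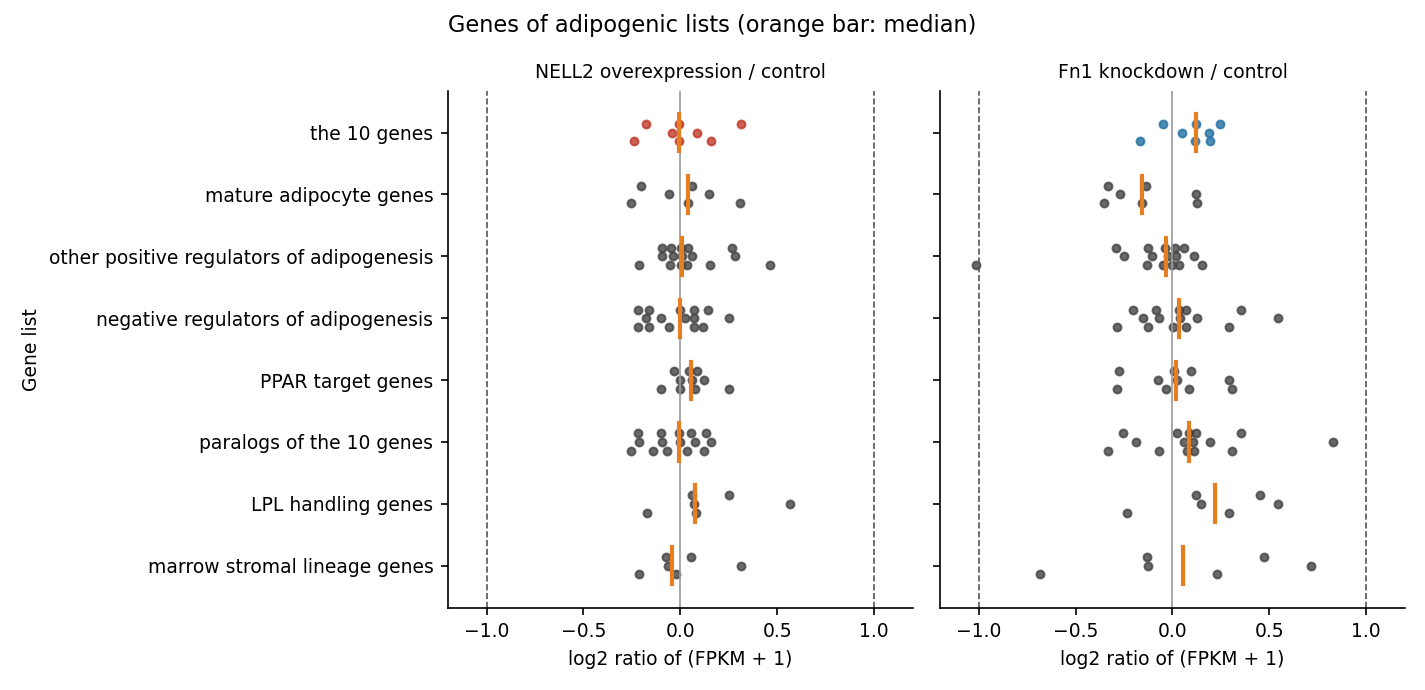
Log2 ratio of (FPKM + 1) to the control for single genes (points) that reached 1 FPKM in any library, by list, for NELL2 overexpression (left) and Fn1 knockdown (right), with the median of each list as an orange bar and dashed lines at 2-fold in FPKM + 1. The top row holds 8 of the 10 genes, and Rxra at -1.01 in the right panel was the only point past 2-fold on this scale (Lipg, at 0.83, was at 218% of the control in FPKM itself).

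Paralogs lay both above and below the adipocyte forms per length. Plin2 was at 82.1 FPKM and Plin3 at 29.6 FPKM in the control, per length, against 0.0826 FPKM for Plin1. Fabp5 was at 25.8 and Fabp3 at 13.96 FPKM, against 1.30 for Fabp4, and Acsl4, Acsl5 and Acsl3 were at 24.6, 19.2 and 15.0 FPKM, against 4.76 for Acsl1. Utp14b overlaps Acsl3 on the same strand, so its value is uncertain, and Acsl5 and Fabp3 overlap genes on the opposite strand. Ppard, for the ubiquitous PPARδ, was at 16.4 FPKM against 2.01 for Pparg. Others lay below the adipocyte form, with Acsl6 at 0.277, Ppara at 0.395, Fabp7 at 0.585 and Lipc at 0.0227 FPKM (against 1.95 for Lpl) and Plin5 listed at 0. These paralogs, Plin2 and Fabp7 aside, were named after their values were seen. Of 21 paralogs 15 reached 1 FPKM, and their medians were -0.0058 and 0.088 beside 0.0071 and -0.0030 over all genes. None was called, against 0.652% and 1.23% of all genes. By the naming rule, Lipg, an endothelial lipase related to Lpl, was the furthest from the control, at 1.93, 1.65 and 4.204 FPKM, followed by Klf2, Fabp7 (0.585, 0.875 and 0.252 FPKM) and Plin4. Lipg was thus highest after Fn1 knockdown, at 218% of the control in FPKM and with a log2 ratio of 0.83 in FPKM + 1.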

How the data were processed

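Polyadenylated RNA of 3 ST2 libraries was sequenced as paired ends on an MGISEQ-2000. The authors mapped reads to mouse transcripts with HISAT2 (GRCm38 in the submitters' processing notes) and deposited FPKM per gene name. The program that computed FPKM, the annotation and the use of strand are not given in the sources used here. The members and lists were chosen with earlier results of these data known.

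Ratios are differences of log2(FPKM + 1). A gene was called at a difference of 1 if either library reached 1 FPKM. This pseudocount understates changes of low genes. Fragments per gene were estimated from the depth at which the most frequent small value of FPKM times length equals 1 fragment, over genes with 1 transcript of at least 600 bases. Only 23.1% to 23.9% of these small values came within 0.02 of whole fragments, so the counts behind the FPKM could not be rebuilt exactly and the intervals are approximate. Length was the median of basic coding transcripts in GENCODE M21, which matched 47465 rows. Named from each list were called genes and the 4 with the largest absolute ratio. Analyses used Python 3.11.15 and scipy 1.17.1, and calls and intervals were tested on simulated data. Alternatives were other pseudocounts (0.1 and 5), no filter or one at 5 FPKM, both scalings (summed FPKM and median of ratios), a 1.5-fold cutoff, ratios of estimated fragments and another transcript length.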

Additional observations from a re-analysis of the deposited data

How the results depend on the processing

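No member was called in either comparison with pseudocounts of 0.1 and 5, no filter, a filter at 5 FPKM, the 1.5-fold cutoff, both scalings and, chosen after seeing the data, a pseudocount of 0.1 with no filter. The median of the members with NELL2 overexpression moved from -0.0069 to 0.16 with genes at 5 FPKM or more, a filter that left only 3 members (Cebpb, Cebpd and Acsl1). Its other values ran from -0.012 to -0.0026, and the Fn1 knockdown median stayed above 0, from 0.058 to 0.19. Of 166 values of single members under alternatives, 14 left the counting interval, all of them for Adipoq or Plin1. That interval was built on FPKM + 1, so values with a pseudocount of 0.1 or as fragment ratios also differ from it in scale. None of the values changed sign, but only the scalings could have changed one. Pseudocounts and fragment ratios keep the sign of a log2 ratio, and the filters and the cutoff leave the value of a single gene as it was. As ratios of estimated fragments, with no call made, Plin1 was at -1.34 with NELL2 overexpression and Adipoq at -1.64 after Fn1 knockdown, past 1 log2 unit on 1 to 4 fragments a library. Lengths from all coding transcripts in place of the basic set were also used, a choice made after seeing the data. Cebpb, Cebpd and Klf5 kept the same length, so their intervals could not move. Length changed only for Pparg, Adipoq, Plin1 and Acsl1, and their intervals held 100% of the control with either length in both comparisons. No paired analysis was possible because there was a single library per group, and none could be left out. Depth limits Fabp4, Adipoq and Plin1 most.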

Other observations

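Genes that handle lipoprotein lipase and genes of the marrow stromal lineage were read as well, in the order control, NELL2 overexpression, Fn1 knockdown. Sel1l, an adaptor of endoplasmic reticulum degradation that LPL needs to leave that compartment, was at 24.7 FPKM in the control library, 37.0 under NELL2 overexpression and 34.2 under Fn1 knockdown, and so was higher in both treated libraries. Vldlr, a lipoprotein receptor, was at 4.87, 5.20 and 7.57 FPKM, and Lrp1, a large receptor of the same family, at 130, 115 and 110 FPKM. Angptl4, an inhibitor of LPL, is given with the PPAR targets. None of the 6 genes of this list at 1 FPKM or more was called, against 0.652% and 1.23% of all genes, and the medians were 0.075 and 0.22 beside 0.0071 and -0.0030 over all genes.

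Lepr, the leptin receptor that marks marrow stroma with fat and bone potential, was at 7.71, 8.07 and 13.3 FPKM. Its log2 ratio after Fn1 knockdown was 0.72 (counting interval 0.60 to 0.84). Apoe, an apolipoprotein of such stroma, went the other way at 8.40, 7.12 and 4.86 FPKM. Cxcl12, the chemokine that retains blood stem cells, was at 7.40, 9.44 and 10.7 FPKM and was above the control in both treated libraries. Hp, for haptoglobin, was at 0.379, 0.842 and 0.238 FPKM. None of the 6 genes of this list at 1 FPKM or more was called, against the same shares of all genes, with medians of -0.040 and 0.053, and no replicate shows how far such genes vary between cultures.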
